A study of Mus musculus with 8 samples.

Results

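Ionotropic and metabotropic glutamate receptors and GABA-A and GABA-B receptors were described in mouse cortex around a surgical cavity through the genes of their subunits. Members were all genes of the deposited table whose symbol belongs to the Gria, Grin, Grik, Grid, Grm, Gabr or Gabbr families: 39 of 17644 genes. They comprise 24 glutamate and 15 GABA receptor genes, of which 34 are described by name and the rest enter counts and sums only. The same naming rule matches 47 RefSeq gene symbols, and the other 8 (Gabra6, Gabre, Gabrp, Gabrr1, Gabrr2, Gabrr3, Grin3b and Grm6) were not analysed here. Both groups were 11-week-old male C57BL/6NCrSlc mice with a cavity made in the motor cortex by aspiration, and the tissue within a 1.0 mm margin was collected. In the no-delay group (4 libraries) brains were taken right after the lesion, and in the 1-week group (4 libraries) 1 week later, so both groups carry the lesion and neither is uninjured tissue. Total RNA was measured by CAGE (cap analysis of gene expression), in which each tag marks the capped 5′ end of an RNA, so a gene's level does not scale with the length of its transcript. The series concerns grafts of human stem cell-derived neurons, and the comparison asks how tissue beside a fresh cavity differs from tissue beside one that is 1 week old.

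Glutamate carries most fast excitation in the cortex. AMPA receptors (Gria genes) open and close within milliseconds of glutamate release, NMDA receptors (Grin genes) pass calcium when release coincides with depolarisation, and kainate receptors (Grik genes) act on both sides of the synapse. The metabotropic receptors (Grm genes) are G protein-coupled: group I raises calcium through phospholipase C, and groups II and III lower cyclic AMP and often sit on presynaptic terminals, or, for Grm3, on astrocytes. GABA carries most inhibition: GABA-A receptors are chloride channels assembled from alpha, beta and a gamma or delta subunit, and GABA-B receptors are obligate pairs of Gabbr1 and Gabbr2 that act through G proteins.

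Values are CPM, the tags of a gene scaled to a common total for each library, and the libraries held 8278855 to 13998941 reads. Within a group the libraries are called A, B, C and D after the 6-base tag in their column names (A for acagtg; B for atcacg; C for cgatgt; D for tgacca), and values are always listed in that order. The letters do not pair a no-delay library with a 1-week library. Means are given ± SD with n = 4 libraries per group. The log2 fold changes are 1 week over no delay on log2(CPM + 1), fitted with limma over 14718 genes (those reaching 1 CPM in 4 or more libraries), and a gene was called at a Benjamini-Hochberg adjusted p under 0.05. The treatment protocol counts 4 brains per group but does not tie each library to its own animal, so p-values measure the spread between these libraries. A second, 3-base tag was CAC in all no-delay and GCT in all 1-week columns, so whatever that tag stands for cannot be told apart from the time after the lesion.

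Of the 39 receptor genes 37 were tested, and 17 of the 37 (45.9%) fell while 0 rose. Over all genes tested, 13.4% were called lower and 23.4% higher. The 2 genes that were not tested, Grm5 and Gabrq, did not reach 1 CPM in 4 libraries. The median log2 fold change was -0.18 over the tested receptor genes and 0.06 over all genes tested, and 32 of the 37 values were below 0. In 16 of the 37 genes (43.2%) all 1-week libraries lay below all no-delay libraries, against 12.0% of all genes tested, and in 0 all lay above, against 22.7%. TMM scaling, under which 17.9% of all genes tested were called lower and 19.7% higher, called 18 receptor genes lower and 0 higher. The count of lower receptor genes was 18 by edgeR (17.4% of all genes), 19 by DESeq2 (18.8%) and lowest, at 13 (11.1%), without the no-delay library C. By CPM summed over all 39 genes, receptor transcripts went from 5839 ± 108 to 4950 ± 184 CPM, or 84.8% of no delay, and these sums did not overlap. In bulk tissue scaled to a common total, fewer cells of a type, less RNA per cell and more RNA from other cells cannot be told apart.

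**Figure D1:**
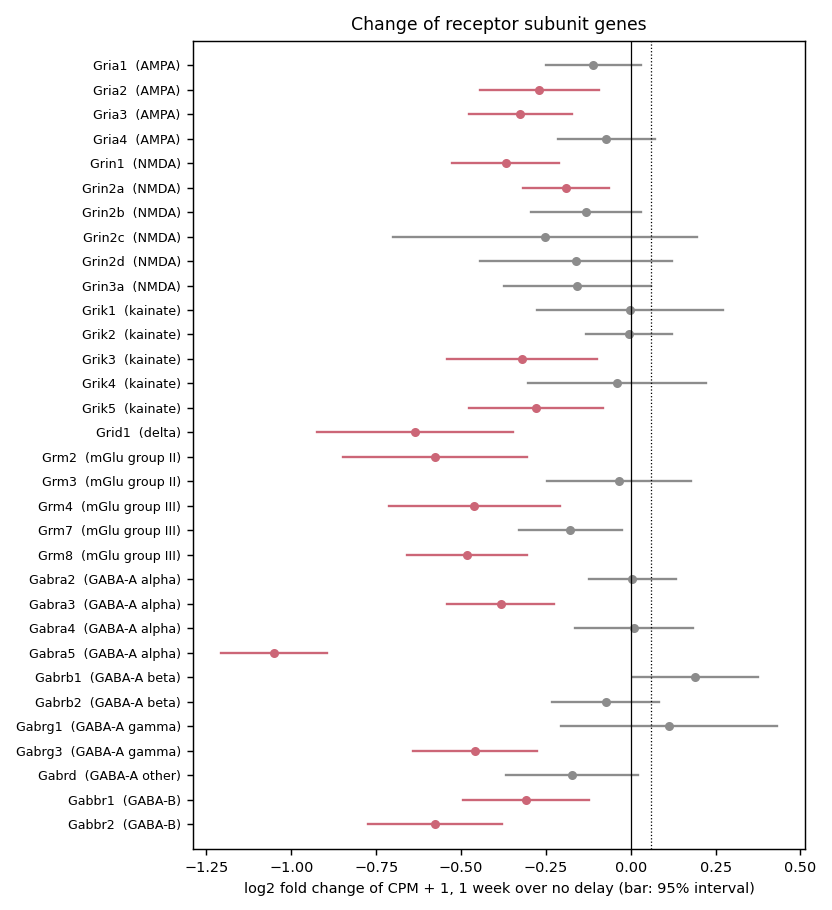
Log2 fold change of CPM + 1 (1 week over no delay, horizontal axis) for the 32 tested receptor genes described by name, with 95% intervals; coloured points are the 15 of them that were called and the dotted line is the median of all genes tested (0.06). All 15 coloured points lie left of 0, with Gabra5 (-1.05) farthest out, while Gabra2, Gabra4, Grik1 and Grik2 lie close to 0.

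Cell-type markers moved in the same libraries, where 13.4% of all genes tested were called lower and 23.4% higher. Of 12 neuronal markers 4 fell and 0 rose, with a summed level of 7095 to 7935 CPM at no delay and 6373 to 6891 CPM at 1 week. Of 12 excitatory neuron markers 4 fell and 2 rose (1218 to 1260 CPM at no delay and 1068 to 1211 CPM at 1 week), and of 12 inhibitory neuron markers 2 fell and 1 rose (1127 to 1254 CPM at no delay and 988 to 1114 CPM at 1 week). The share called lower was 33.3% for excitatory and 16.7% for inhibitory neuron markers, the latter near the share over all genes tested. Markers of other cells were higher: 11 of 12 for astrocytes (2376 to 2689 CPM at no delay and 4787 to 5494 CPM at 1 week), 12 of 12 for microglia and macrophages (521 to 527 CPM at no delay and 2025 to 3103 CPM at 1 week), 6 of 8 for oligodendrocyte precursors (186 to 242 CPM at no delay and 350 to 436 CPM at 1 week), 5 of 9 for oligodendrocytes (1520 to 3448 CPM at no delay and 2400 to 4053 CPM at 1 week) and 5 of 6 for endothelium (122 to 137 CPM at no delay and 195 to 231 CPM at 1 week), with 0 lower. No marker was at 0 in all libraries of a group, so neuronal and glial transcripts of the labelled tissue, brain, were measured at both times. The part of these markers in the lower receptor levels was not tested.

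AMPA receptor genes had the highest summed level of any class, which went from 1696 ± 62.6 to 1444 ± 106 CPM, or 85.2% of no delay, with no overlap between the groups. Of the 4 genes 2 fell, beside 13.4% called lower over all genes tested. Gria2, whose edited subunit keeps the channel impermeable to calcium, stood at 992, 943, 945 and 869 CPM at no delay and 859, 778, 791 and 687 CPM at 1 week. Gria2 fell from 937 ± 51 to 779 ± 70.7 CPM (83.1% of no delay), log2 fold change -0.27 (SE 0.08, 95% interval -0.445 to -0.0946), adjusted p = 0.0198. Its 1-week libraries all lay below its no-delay libraries, the highest of them close under the lowest no-delay library. Gria3, which pairs with Gria2 in many cortical receptors, stood at 331, 334, 319 and 313 CPM at no delay and 292, 258, 252 and 236 CPM at 1 week. Gria3 fell to 80% of no delay, log2 fold change -0.33 (SE 0.07), adjusted p = 0.0032, and its groups did not overlap. Gria1, the subunit inserted during synaptic potentiation, went from 285 ± 9.39 to 264 ± 18.1 CPM (adjusted p = 0.199), and 1 of its 1-week libraries, at 289 CPM, lay among the no-delay libraries. Gria4, common in fast-spiking interneurons, went from 149 ± 7.03 to 142 ± 9.7 CPM (adjusted p = 0.415). Without the 1-week library D, Gria2 was no longer called (adjusted p = 0.05).

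NMDA receptor genes went from 1334 ± 44.9 to 1126 ± 71.9 CPM, or 84.4% of no delay in summed CPM, without overlap. Of the 6 genes 2 fell, beside 13.4% called lower over all genes tested. Grin1, the subunit that every NMDA receptor needs, stood at 601, 578, 593 and 640.5 CPM at no delay and 460.0, 440.2, 445 and 527 CPM at 1 week. Grin1 fell from 603 ± 26.6 to 468 ± 40.1 CPM (77.6% of no delay), log2 fold change -0.37 (SE 0.07, 95% interval -0.526 to -0.211), adjusted p = 0.00177. All of its 1-week libraries lay below all of its no-delay libraries. Grin2a, the subunit that gains share as cortical synapses mature, stood at 199.7, 186, 199 and 182 CPM at no delay and 164, 175, 165 and 167 CPM at 1 week. Grin2a fell to 87.5% of no delay, log2 fold change -0.19 (SE 0.06), adjusted p = 0.0218, and its groups did not overlap. Grin2b, the slower subunit that predominates early in life, went from 481 ± 30.2 to 439.8 ± 35 CPM (adjusted p = 0.189), with overlapping groups. Grin2c, Grin2d and Grin3a, the less abundant subunits, averaged 4.52 to 28.4 CPM at no delay and had log2 fold changes of -0.25, -0.16 and -0.16, none of them called. The call of Grin2a ended without the no-delay library A or C or the 1-week library A or C (adjusted p 0.052 to 0.0665), as well as under quantile normalization (0.0524) and without the variance trend (0.0512).

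Kainate receptor genes went from 264 ± 10.8 to 241 ± 19.3 CPM, or 91.1% of no delay, with overlapping sums. Of the 5 genes 2 fell, beside 13.4% called lower over all genes tested. Grik5, a high-affinity subunit that needs a partner from Grik1 to Grik3 to form a channel, stood at 96.3, 87.5, 101 and 97 CPM at no delay and 87.1, 68.3, 71.7 and 88.7 CPM at 1 week. Grik5 fell to 82.7% of no delay, log2 fold change -0.28 (SE 0.09), adjusted p = 0.03, though 1 of its 1-week libraries, D, was above its lowest no-delay library. Grik3, one of the subunits that can form a channel alone, stood at 29.4, 26.8, 28.3 and 22.4 CPM at no delay and 19.9, 21, 23.8 and 19.9 CPM at 1 week. Grik3 fell to 79.1% of no delay, log2 fold change -0.32 (SE 0.10), adjusted p = 0.0259, with its groups overlapping by the no-delay library D and the 1-week library C. Grik2, the most widely expressed of the low-affinity subunits, went from 80.3 ± 1.91 to 80 ± 2.61 CPM, and the 95% interval of its log2 fold change ran from -0.131 to 0.121. Grik1 (12.99 to 12.87 CPM) and Grik4 (48.6 to 47.5 CPM), by their means, were not called either. Leaving out 1 library ended the call of Grik3 for the no-delay libraries A, B and C and the 1-week libraries A, B and D (adjusted p 0.0544 to 0.0704), and that of Grik5 for the no-delay libraries A, C and D and the 1-week libraries B and C (0.0587 to 0.0968).

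Delta receptor genes encode synaptic organisers that bind cerebellins rather than act as glutamate-gated channels. Grid1, the form common in forebrain, stood at 48.4, 47.6, 47.9 and 38.5 CPM at no delay and 26.8, 22.2, 32.6 and 35.8 CPM at 1 week. Grid1 fell to 64.4% of no delay, log2 fold change -0.63 (SE 0.13, 95% interval -0.923 to -0.346), adjusted p = 0.00264, the lowest log2 fold change of the 17 ionotropic glutamate receptor genes. Its groups did not overlap, although the no-delay library D was well under the other 3.

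Metabotropic glutamate receptor genes fell in 3 of 6 tested (Grm2, Grm4 and Grm8), beside 13.4% called lower over all genes tested. Group III summed CPM went from 176 ± 9.73 to 146 ± 3.42 CPM, or 83.2% of no delay, without overlap. The sums of group II, which averaged 174 CPM at no delay (92.8% of that at 1 week), overlapped between times. Most of each sum came from 1 gene that was not called: Grm7 (127 CPM at no delay) in group III and Grm3 (145 CPM) in group II. The difference between the groups of receptors was not tested. Grm2, a presynaptic brake on glutamate release, stood at 33.8, 26.4, 26.6 and 27 CPM at no delay and 21.7, 15.2, 17.1 and 21.3 CPM at 1 week. Grm2 fell to 66.2% of no delay, log2 fold change -0.58 (SE 0.12, 95% interval -0.849 to -0.306), adjusted p = 0.00322, with no overlap. Grm3, the other group II receptor, which astrocytes also express, stood at 142, 143, 163 and 134 CPM at no delay and 168, 121, 132 and 149 CPM at 1 week. Grm3 was not called: its log2 fold change was -0.035, with a 95% interval of -0.248 to 0.177, and its libraries were intermixed. Among the group III receptors, Grm8 stood at 43.4, 40.1, 38.7 and 40.8 CPM at no delay and 31, 26.5, 31.2 and 27 CPM at 1 week. Grm8 fell to 71% of no delay, log2 fold change -0.48 (SE 0.08), adjusted p = 5.6e-04, and its groups were well apart. Grm4, at the lowest level of the called genes, stood at 7.17, 8.32, 8.51 and 9.17 CPM at no delay and 6.28, 5.62, 5.21 and 5.86 CPM at 1 week. Grm4 fell to 69.2% of no delay, log2 fold change -0.46 (SE 0.12), adjusted p = 0.00787, also without overlap.

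Grm7, the most abundant group III receptor and one that sits in the presynaptic active zone, stood at 116, 134, 138 and 118 CPM at no delay and 108, 109.7, 113 and 115 CPM at 1 week. Its groups did not overlap, but at a log2 fold change of -0.18 (SE 0.07) it was not called (adjusted p = 0.0642). Grm7 was called without the no-delay library A (adjusted p = 0.0329) or D (0.0468) and under TMM scaling (0.0146), median-of-ratios scaling (0.0127), library weights (0.0284), edgeR (0.0157) and DESeq2 (0.00509). Grm5, a group I receptor, stood at 0.92, 1.37, 2.38 and 0.52 CPM at no delay and 0.36, 0.44, 1.43 and 0.90 CPM at 1 week (up to 24 reads in a library), and was not tested. Which tags around a gene's start were assigned to it is not given in the sources used here, so this low level does not show that the gene was barely expressed.

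**Figure D2:**
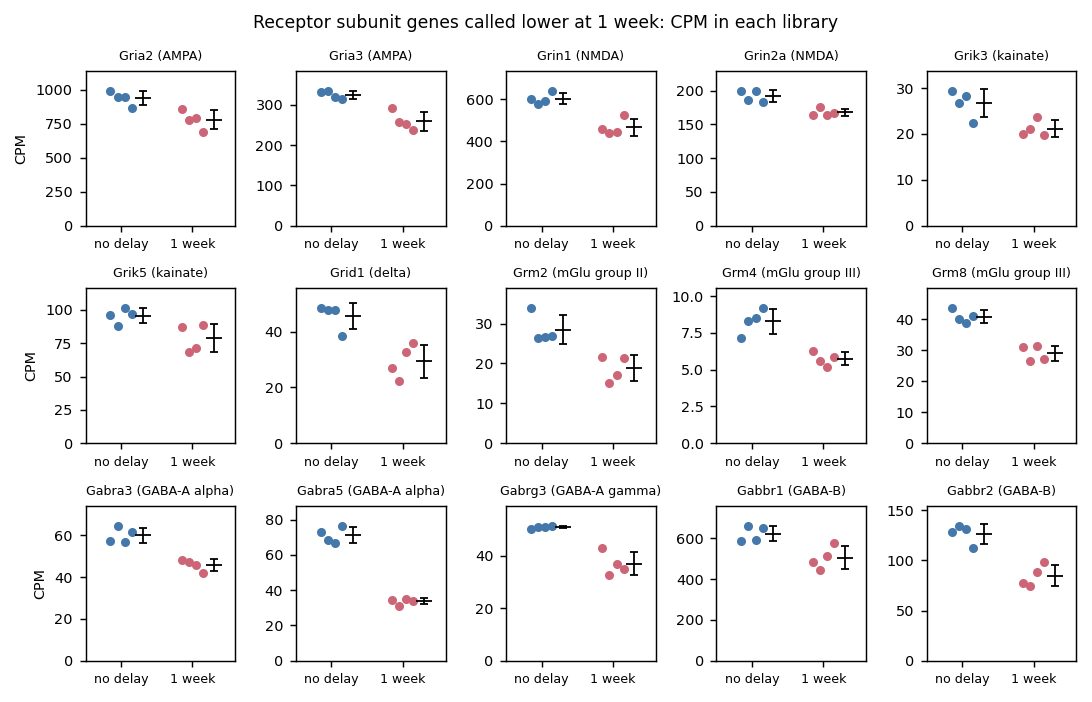
CPM in each library (vertical axis, starting at 0) for the 15 receptor genes described by name that fell, with mean and SD bars; no-delay libraries on the left of each panel and 1-week libraries on the right. The groups are apart in 13 of the 15 panels and overlap in Grik3 and Grik5. The genes were selected by their calls in these same libraries, so this count is not separate support.

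GABA-A receptor genes fell in 4 of 12 tested, beside 13.4% called lower over all genes tested. Gabra5 had the lowest log2 fold change of the 37 tested receptor genes. Gabra5, the alpha subunit of extrasynaptic receptors that carry tonic inhibition, stood at 73, 68.6, 66.5 and 76.4 CPM at no delay and 34.7, 31.3, 35.1 and 34.1 CPM at 1 week. Gabra5 fell from 71.1 ± 4.43 to 33.8 ± 1.74 CPM (47.5% of no delay), log2 fold change -1.05 (SE 0.07, 95% interval -1.21 to -0.895), adjusted p = 4.6e-07. Every 1-week library was close to 1 level, far below every no-delay library. Gabrg3, a gamma subunit, stood at 50.4, 51, 51.1 and 51.5 CPM at no delay and 43.1, 32.7, 36.9 and 35.2 CPM at 1 week. Gabrg3 fell to 72.5% of no delay, log2 fold change -0.46 (SE 0.08), adjusted p = 0.00104, from no-delay libraries that were nearly equal. Gabra3, an alpha subunit strong in deep cortical layers, stood at 57.2, 64.6, 56.9 and 61.6 CPM at no delay and 48.4, 47.1, 45.8 and 41.9 CPM at 1 week. Gabra3 fell to 76.3% of no delay, log2 fold change -0.38 (SE 0.07), adjusted p = 0.00138, with no overlap.

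Gabra2, Gabra4, Gabrb1, Gabrb2, Gabrd and Gabrg1 were not called. Gabrb2, the beta subunit of many cortical synaptic receptors, stood at 176, 174, 182 and 153 CPM at no delay and 169, 171, 162 and 148 CPM at 1 week (adjusted p = 0.449). Its groups overlapped. Gabra2, an alpha subunit enriched at the axon initial segment, went from 94 ± 4.16 to 94.2 ± 2.31 CPM, and the 95% interval of its log2 fold change ran from -0.124 to 0.133. Gabra4, which pairs with the delta subunit outside synapses, went from 87.3 ± 10 to 87.5 ± 3.01 CPM. Gabrd, that delta subunit, stood at 116, 100.2, 117 and 114 CPM at no delay and 104, 93, 86.2 and 115 CPM at 1 week, with overlapping groups and an adjusted p of 0.153. Gabrb1 went from 54.2 ± 4.0 to 62 ± 6.0 CPM and Gabrg1, a subunit also found in glia, from 22.8 ± 2.7 to 25.1 ± 6.07 CPM; neither was called (adjusted p = 0.101 and 0.576). Without the 1-week library D, Gabrb1 was called higher (log2 fold change 0.26, adjusted p = 0.0195) and Gabrd lower (-0.25, adjusted p = 0.0346). Gabrq stood at 0.82, 0.37, 0.79 and 0.21 CPM at no delay and 0.36, 0.00, 0.00 and 0.41 CPM at 1 week, around the 0.214 to 0.362 CPM that 3 reads are worth in these libraries, and was not tested.

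Neighbouring GABA-A genes were compared by grouping genes within 1 Mb of each other in the GENCODE annotation, a grouping chosen after the values were seen. Gabrg3 and Gabra5 are neighbours, and both fell. In the cluster of Gabrg1, Gabra2, Gabra4 and Gabrb1 0 of 4 were called (log2 fold changes 0.11, 0.0045, 0.0095 and 0.19), beside 36.8% of all genes tested. Gabra3 neighbours Gabrq, which was not tested. Gabra5 overlaps another gene on the opposite strand in that annotation, and Gabra4 and Gabrb1, as well as Grin2d and Kdelr1, overlap each other in this way. Whether the authors' counting used strand is not given in the sources used here, and without it reads of such partners cannot be told apart.

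**Figure D3:**
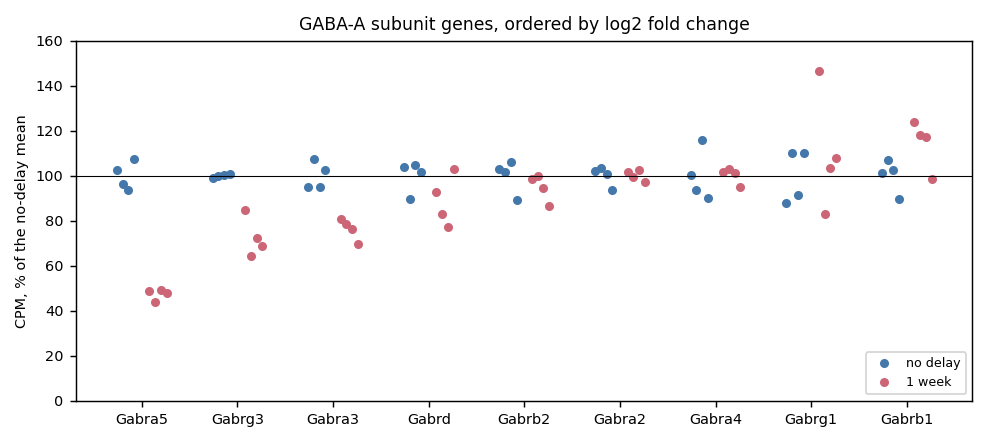
CPM of each tested GABA-A gene described by name, in each library, as a percentage of that gene's no-delay mean (vertical axis, starting at 0), with genes ordered by log2 fold change. The 1-week points of Gabra5, Gabrg3 and Gabra3 lie below all their no-delay points, with means of 47.5%, 72.5% and 76.3%, while the points of both groups overlap in the other genes.

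RefSeq promoter windows were matched by symbol for 24 of the 39 receptor genes (31 entries, build GRCm38.p6, not the mm9 of the authors' processing), and the 250 bases before each start are described. Windows are shown for falling genes of contrasting composition and for Gabrb2, which was not called, to let them be compared. Capitals mark the letters TATAAA, or TTTATA where the match is on the other strand.
Gabra5, chr7:57510060-57510309, minus strand: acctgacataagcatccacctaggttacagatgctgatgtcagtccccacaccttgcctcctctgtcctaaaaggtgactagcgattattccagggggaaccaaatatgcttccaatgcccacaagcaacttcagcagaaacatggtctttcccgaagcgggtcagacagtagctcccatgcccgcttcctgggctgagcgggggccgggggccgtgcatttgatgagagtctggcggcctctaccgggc
Gabrg3, chr7:57387216-57387465, minus strand: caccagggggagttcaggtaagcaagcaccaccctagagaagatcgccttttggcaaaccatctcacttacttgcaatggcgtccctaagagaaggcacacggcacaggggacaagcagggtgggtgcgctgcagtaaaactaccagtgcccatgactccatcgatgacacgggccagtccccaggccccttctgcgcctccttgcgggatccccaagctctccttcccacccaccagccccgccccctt
Gabra3, chrX:72656920-72657169, minus strand: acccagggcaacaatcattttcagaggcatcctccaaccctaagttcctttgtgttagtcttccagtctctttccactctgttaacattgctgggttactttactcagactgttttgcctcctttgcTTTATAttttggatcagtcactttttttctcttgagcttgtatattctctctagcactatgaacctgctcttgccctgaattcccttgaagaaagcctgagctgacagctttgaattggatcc
Gabbr2, chr4:46991715-46991964, minus strand: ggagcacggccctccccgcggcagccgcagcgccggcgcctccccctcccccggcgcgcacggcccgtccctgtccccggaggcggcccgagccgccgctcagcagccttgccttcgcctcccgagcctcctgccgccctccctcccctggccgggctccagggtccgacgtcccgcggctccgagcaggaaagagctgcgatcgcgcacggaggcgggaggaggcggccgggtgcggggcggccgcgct
Grm2, chr9:106656110-106656359, minus strand: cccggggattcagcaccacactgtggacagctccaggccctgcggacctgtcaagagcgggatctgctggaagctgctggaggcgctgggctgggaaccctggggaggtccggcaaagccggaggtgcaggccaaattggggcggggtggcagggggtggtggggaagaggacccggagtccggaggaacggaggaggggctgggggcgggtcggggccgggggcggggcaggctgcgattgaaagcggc
Gabrb2, chr11:42420190-42420439, plus strand: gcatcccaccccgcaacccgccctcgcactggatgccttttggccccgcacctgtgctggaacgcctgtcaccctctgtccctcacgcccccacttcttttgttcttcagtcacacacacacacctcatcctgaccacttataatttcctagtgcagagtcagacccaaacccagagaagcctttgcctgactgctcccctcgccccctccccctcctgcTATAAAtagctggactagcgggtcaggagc
Gabra5 and Gabrg3, neighbours that fell together, had GC contents of 56.4% and 60.4%. Gabbr2 was at 80.8% with 37 CpG dinucleotides, Grm2 at 71.2% with 16, and Gabra3 at 42.4% with 0. The median GC content was 62.6% over the 14 entries of genes that fell, 61.6% over the 16 entries of genes tested and not called, and 52.4% over all 32841 RefSeq entries. TATAAA, searched on both strands, was in 3 of the 31 entries (9.68%, against 12.4% of all entries): 2 of Gabra3, whose windows overlap and hold the same match, and the 1 of Gabrb2 shown, where its first base lies 30 bases before the start. The cyclic AMP response element TGACGTCA was in 0 of the 31 entries (1.55% of all), its core TGACGT, which it contains, also in 0 (6.47% of all), and the palindromic NRF1 motif in 1, a Gabrb1 entry (0.783% of all). These are letter matches in 1 window per start and not evidence of binding.

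GABA-B receptor genes both fell, beside 13.4% called lower over all genes tested. Their summed CPM went from 750.4 ± 36.4 to 589.7 ± 67.8 CPM, or 78.6% of no delay, without overlap. Gabbr1, the subunit that binds GABA, stood at 588, 661, 593 and 653 CPM at no delay and 484, 443, 513 and 579.5 CPM at 1 week. Gabbr1 fell to 80.9% of no delay, log2 fold change -0.31 (SE 0.09), adjusted p = 0.013, with the 1-week library D closest to the no-delay libraries. Gabbr2, the subunit that couples to the G protein and brings Gabbr1 to the surface, stood at 129, 134, 131 and 112 CPM at no delay and 77.9, 74.7, 88.3 and 98.2 CPM at 1 week. Gabbr2 fell to 67% of no delay, log2 fold change -0.58 (SE 0.09, 95% interval -0.775 to -0.378), adjusted p = 3.6e-04. Its groups did not overlap, and its promoter window was the most GC-rich of the 6 shown.

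**Figure D4:**
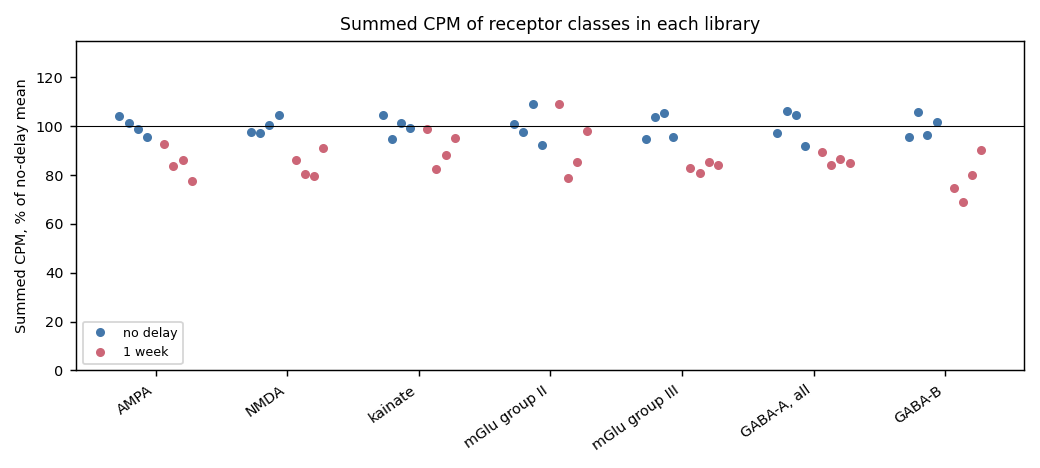
Summed CPM of 7 receptor classes in each library as a percentage of the class's no-delay mean (vertical axis, starting at 0). One-week points lie under all no-delay points for AMPA, NMDA, mGlu group III, all GABA-A genes together and GABA-B, and overlap them for kainate and mGlu group II.

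By class sums, GABA-A genes together stood at 86.2% of no delay, without overlap. This sum does not describe every gene of the class: 8 of 12 tested were not called, and the median log2 fold change was -0.075. Glutamate receptor genes together stood at 85.5% and GABA receptor genes at 83.5%. Of glutamate receptor genes 11 of 23 tested fell, and of GABA receptor genes 6 of 14. Neither had a gene called higher, and 13.4% were called lower and 23.4% higher over all genes tested. Differences between classes were not tested.

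Ratios of partner subunits were compared by exact permutation of the libraries (70 arrangements, 2-sided), with Benjamini-Hochberg adjustment over 10 ratios, and none passed. The Grm3 to Grm2 ratio went from 5.17 ± 0.813 to 7.6 ± 0.428, without overlap. It reached the smallest permutation p that 4 against 4 libraries allow, 0.0286, with an adjusted p of 0.143. A single ratio at that smallest p cannot pass the adjustment over 10 ratios. The lack of a pass therefore does not show that the ratios were unchanged. The Gabbr1 to Gabbr2 ratio went from 4.96 ± 0.606 to 5.96 ± 0.172 (permutation p = 0.0571, adjusted p = 0.143), and the Grik5 to Grik2 ratio from 1.19 ± 0.0866 to 0.986 ± 0.124 (permutation p = 0.0571, adjusted p = 0.143). The Gria1 to Gria2 ratio, related to calcium permeability of AMPA receptors, went from 0.304 ± 0.0225 to 0.34 ± 0.023 (permutation p = 0.0857, adjusted p = 0.143). The Grin2a to Grin2b ratio, a measure of NMDA receptor maturity, went from 0.40 ± 0.0381 to 0.384 ± 0.036 (permutation p = 0.571, adjusted p = 0.635).

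Proteins that assemble, anchor or supply these receptors were followed through 61 genes in 7 lists, of which 59 were tested, 25 fell and 8 rose (median log2 fold change -0.20), beside 13.4% lower and 23.4% higher over all genes tested. Among AMPA receptor auxiliary subunits 5 of 11 tested fell and 1 rose. Cnih2, a cornichon that slows AMPA channel closing, fell from 284 ± 63.5 to 129 ± 19 CPM (log2 fold change -1.11, adjusted p = 9.0e-05). Cacng5, an atypical member of the TARP family, rose from 3.92 ± 0.974 to 9.06 ± 1.73 CPM (log2 fold change 1.04, adjusted p = 4.0e-04). Gsg1l and Shisa9, which also modulate AMPA channels, fell from 40.8 ± 5.81 to 30.4 ± 3.91 CPM (log2 fold change -0.41, adjusted p = 0.0162) and from 47.4 ± 5.57 to 35.7 ± 2.14 CPM (log2 fold change -0.39, adjusted p = 0.00494). Both kainate receptor auxiliary genes fell, Neto1 from 88.8 ± 4.66 to 72.7 ± 5.58 CPM (log2 fold change -0.29, adjusted p = 0.0078) and Neto2 from 76.9 ± 11.4 to 58.9 ± 7.23 CPM (log2 fold change -0.38, adjusted p = 0.0171). Leaving out the 1-week library B or C took the AMPA auxiliary count from 5 to 3, and the calls of Gsg1l (without the no-delay or 1-week library C, adjusted p 0.0525 and 0.0548) and Neto2 (without the no-delay library B or the 1-week library B or C, 0.0502 to 0.0571) ended. Leaving out the 1-week library B lowered the count over all lists from 25 to 17, and the share called lower over all genes tested from 13.4% to 9.72%.

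Of 19 tested scaffold genes of the glutamate synapse 12 fell and 1 rose, with a median log2 fold change of -0.28. The shares over all genes tested were 13.4% lower and 23.4% higher, with a median of 0.06. Homer1, which links group I metabotropic receptors to internal calcium stores, fell from 270.4 ± 27.5 to 156 ± 28.4 CPM (log2 fold change -0.80, adjusted p = 2.4e-04), and Homer2 fell from 50.3 ± 2.93 to 30.9 ± 5.84 CPM (log2 fold change -0.70, adjusted p = 4.3e-04). Shank1, a scaffold of the postsynaptic density that binds Homer proteins, fell from 252 ± 6.23 to 170.2 ± 19.9 CPM (log2 fold change -0.57, adjusted p = 1.6e-04). Homer3 rose from 3.1 ± 0.635 to 5.4 ± 0.808 CPM (log2 fold change 0.65, adjusted p = 0.00558), but was not called under quantile normalization (log2 fold change 0.26, adjusted p = 0.186). Among 9 tested genes of GABA-A receptor clustering and assembly 5 fell and 1 rose. Clptm1, which holds GABA-A subunits back in the endoplasmic reticulum, fell from 184 ± 15.4 to 108 ± 16.3 CPM (log2 fold change -0.77, adjusted p = 9.8e-05). Ubqln1, which stabilises the subunits inside the cell, fell from 272 ± 12.9 to 194 ± 21.9 CPM (log2 fold change -0.49, adjusted p = 4.0e-04). Gabarap, which binds the gamma subunit and also serves autophagy, rose from 139 ± 11.1 to 217 ± 22.1 CPM (log2 fold change 0.64, adjusted p = 7.4e-05). Kctd12, a GABA-B auxiliary subunit that speeds desensitisation, rose from 44.5 ± 6.37 to 87.1 ± 7.39 CPM (log2 fold change 0.96, adjusted p = 1.2e-05), in contrast to Gabbr1 and Gabbr2 in the same libraries, and was the only 1 of 3 tested GABA-B auxiliary genes to be called.

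Among genes of glutamate and GABA synthesis, vesicular loading and uptake, 4 of 14 rose and 1 fell, beside 23.4% higher and 13.4% lower over all genes tested. Glul, the astrocytic glutamine synthetase, rose from 188 ± 19.6 to 337 ± 17.7 CPM (log2 fold change 0.84, adjusted p = 5.5e-06), and the astrocytic glutamate transporters Slc1a3 and Slc1a2 rose from 276 ± 20 to 432 ± 41.8 CPM (log2 fold change 0.64, adjusted p = 6.1e-05) and from 1170 ± 80.9 to 1755 ± 52.3 CPM (log2 fold change 0.59, adjusted p = 8.2e-05). Slc1a3 and Slc1a2 are also among the astrocyte markers above. Neither chloride transporter was called: Slc12a5 (KCC2), which keeps chloride low so that GABA inhibits, went from 516 ± 38.9 to 441 ± 46.2 CPM (log2 fold change -0.23, adjusted p = 0.0506), a value that was under the threshold in 6 of 19 alternative settings, among them without the 1-week library D (adjusted p = 0.0176).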

How the data were processed

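Single-end CAGE reads of 75 nt were obtained from total RNA, per the labels' protocols, and BWA 0.5.9 and the mouse build mm9 are named in the submitters' processing notes. The way tags were assigned to genes, strand included, is not given in the sources used here. CPM values made by the authors were deposited for 17644 genes in 8 columns. Columns name a group but no replicate number, so each was assigned to its group. All values were whole multiples of 1 read within 0.1 reads (100%), and 3 reads correspond to 0.214 to 0.362 CPM, which covers counting error only.

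Values of log2(CPM + 1), which compress differences at low levels, were fitted in limma 3.58.1 under R 4.3.3, with the variance trend on. The fit covered genes reaching 1 CPM in 4 or more libraries (14718 tested, 2926 not tested), was 2-sided, and used Benjamini-Hochberg adjustment with calls at adjusted p under 0.05. The procedure was tested on simulated reads in which few genes changed. In these data 36.8% of genes tested were called, and that test does not cover so broad a change. Alternatives were pseudocounts of 0.25 and 5, no filter, a CPM filter of 5, TMM, median-of-ratios and quantile scaling, no variance trend, library weights, edgeR 4.0.16 and DESeq2 1.42.0 on the recovered reads, and leaving out each library.

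Named with values in every library were receptor genes that were called with a mean of 5 CPM or more and the most abundant gene of each class. Pathway genes, named with group means, were up to 4 called genes per list ranked by absolute log2 fold change, or else the most abundant gene. The members, lists and tests were chosen with earlier results of these data known. No receptor gene had the same reads as another gene in every library. Some of these genes are not reported here.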

Additional observations from a re-analysis of the deposited data

Results flagged for a closer look

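Each receptor gene described by name was checked in each group for a library far from the other 3, by the gap to its nearest neighbour over the group's range (Dixon's test). This flagged 2 of 68 groups, and chance flags about 1 in 20. Grid1 had its lowest no-delay value in library D, at 38.55 CPM, with the others at 47.64 to 48.36 CPM. Grm2 had its highest no-delay value in library A, at 33.81 CPM, with the others at 26.43 to 26.99 CPM. Grid1 and Grm2 were called lower with and without these libraries.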

How the results depend on the processing

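No paired analysis was possible because the columns carry no replicate numbers. The number of receptor genes called lower was 17 and ran from 13 to 19 over 19 alternative settings, from 13 to 17 when 1 library was left out, with 18 by edgeR and 19 by DESeq2. The number called higher was 0, and 0 to 1 when 1 library was left out (Gabrb1, without the 1-week library D). Of the 15 called genes described by name 11 were called in all 19 alternatives, and none changed direction. The other 4 (Gria2, Grin2a, Grik3, Grik5) are given in the report with the libraries concerned; Grik5 also lost its call without the variance trend (adjusted p = 0.0596). Of the uncalled genes 5 were called in some alternatives, among them Gria1 by DESeq2 (adjusted p = 0.0409) and Grin2d under quantile normalization (0.00656). Over all genes tested, the median log2 fold change was 0.06 as deposited, 0.0027 under TMM and -0.0052 under median-of-ratios scaling, and the share of genes called lower was 17.9% and 18.7% there, with 19.7% and 19.4% called higher. Under TMM and median-of-ratios scaling, log2 ratios of summed CPM were -0.33 and -0.34 for mGlu group III, -0.20 and -0.21 for GABA-A alpha, -0.30 and -0.30 for ionotropic glutamate receptors, -0.29 and -0.30 for all glutamate receptors and -0.30 and -0.31 for all receptor genes, and -0.33 for all GABA receptors under median-of-ratios scaling. As deposited, these ratios were -0.27 for mGlu group III, -0.14 for GABA-A alpha and -0.23 for ionotropic glutamate receptors. They were -0.23 for all glutamate receptors, -0.24 for all receptor genes and -0.26 for all GABA receptors. Classes that moved by less than the SD between libraries of a group are not listed. Signs changed for 7 uncalled genes, whose log2 fold changes lay near 0. Gabra2 was at -0.057 (TMM), -0.065 (median of ratios), -0.055 (edgeR) and -0.065 (DESeq2), and Gabra4 at -0.052, -0.060, -0.054 and -0.063. Under quantile normalization Grik2 was at 0.0054, and with library weights Grik1 was at 0.019. With 1 library left out, the log2 fold changes ran from -0.027 to 0.021 for Gabra2, -0.038 to 0.082 for Gabra4, -0.029 to 0.23 for Gabrg1, -0.081 to 0.11 for Grik1, -0.022 to 0.012 for Grik2, -0.13 to 0.050 for Grik4, -0.12 to 0.038 for Grm3. The cause was not tested. Exact permutation tests of ratios with 3 against 4 libraries cannot go below p = 0.0571. Depth limits Gabrq, which was near or under the value of 3 reads in some libraries.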

Other observations

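The AMPA receptor auxiliary subunit gene Cacng8 was at a very low CAGE level beside a close relative: it averaged 0.47 CPM at no delay, against 72.6 CPM for Cacng2. Which tags around a gene's start were assigned to it is not given in the sources used here, so this does not show that Cacng8 was barely expressed.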
